A study of Mus musculus with 6 samples.

Results

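The Sonic hedgehog pathway was followed through 9 genes in the rostral forebrain of mouse embryos: the ligand gene Shh, its release factor Scube2, the receptor genes Ptch1, Smo and Hhip, the transcription factor genes Gli1, Gli2 and Gli3, and the floor plate gene Foxa2. Members were all probe sets that carry 1 of these symbols and no other in the platform annotation, which gave 20 probe sets among 34958 with a single symbol, for 9 of 18194 genes. Each gene had at least 1 probe set. Of the 20, 12 probe sets of 7 genes lay above a filter on dim signal and were tested. The single Foxa2 probe set, all 4 of Hhip, and 1 each of Shh, Ptch1 and Smo lay below it and are given as values only.

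Hedgehog signalling carries positional information from a localised source of ligand. Shh protein is lipid-modified and is freed from producing cells with the help of Scube2. On a receiving cell it binds Ptch1, which otherwise holds the transducer Smo inactive. Active Smo turns Gli2 into an activator and limits the cutting of Gli3 into a repressor, and Gli1, Ptch1 and Hhip are themselves transcribed in response. In the developing forebrain Shh comes from the ventral midline and later also from the ventral telencephalon and the zona limitans of the diencephalon, and it promotes ventral at the expense of dorsal identity.

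Wild-type embryos were set against embryos that lacked both Fezf1 and Fezf2, zinc-finger repressors of the early rostral forebrain (labelled Fezf1-/- Fezf2-/-). The dissected piece reached back to where the lateral ventricle ends caudally. It was taken at 3 ages, embryonic day 9.5 (E9.5), day 10.5 (E10.5) and day 12.5 (E12.5), and total RNA from each genotype and age was hybridised to 1 Affymetrix array, 6 arrays in all. The labels give neither strain nor the number of embryos behind an array. Each group is 1 array, so no replicate stands behind a difference seen at 1 age, and p-values across ages measure only the spread between these 6 arrays, which may be partly technical.

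The arrays differed in overall level, with a trimmed mean of the deposited signal between 74.3 and 162, so values here are signals after quantile normalization unless stated. Differences are on the log2(signal + 6.5) scale, where 1 is 2-fold, folds are taken on this scale too, and changes of dim genes are understated. The wild-type arrays held 78.9 to 249 for Fezf2 and the knockout arrays 0.458 to 1.66, and Fezf1 was 143 to 251 against 49.5 to 97.7. All 6 forebrain markers measured (Six3, Emx2, Lhx2, Pax6, Otx2 and Sox2) lay above the filter. All 7 Hox and Egr2 markers of hindbrain and spinal cord lay below it. At E10.5 Xist, which coats the silenced X in females, stood at 573 in wild type and 11.7 in the knockout. It was 725 and 453 at E9.5 and 9.87 and 17.7 at E12.5, so its level also differed between ages. The part of sex makeup in the genotype differences at E10.5 and in the changes with age was not tested.

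The bases before the start of transcription are shown for Scube2, the member that differed most between genotypes, and for Ptch1 and Smo, which fell with age in the arrays of both genotypes. They are the 250 bases upstream of 1 annotated RefSeq start of each gene in GRCm38.p6, 5′ to 3′ on the strand of the gene, and capitals mark GC boxes (GGGCGG, either strand, overlapping matches joined). The windows are chr7:109865680-109865929 (minus strand) for Scube2, chr13:63565736-63565985 (minus strand) for Ptch1 and chr6:29735247-29735496 (plus strand) for Smo.
Scube2: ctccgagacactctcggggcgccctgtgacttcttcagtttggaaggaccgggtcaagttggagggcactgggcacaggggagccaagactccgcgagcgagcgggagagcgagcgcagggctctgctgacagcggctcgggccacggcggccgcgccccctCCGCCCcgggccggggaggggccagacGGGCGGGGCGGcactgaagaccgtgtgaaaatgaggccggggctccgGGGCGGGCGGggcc
Ptch1: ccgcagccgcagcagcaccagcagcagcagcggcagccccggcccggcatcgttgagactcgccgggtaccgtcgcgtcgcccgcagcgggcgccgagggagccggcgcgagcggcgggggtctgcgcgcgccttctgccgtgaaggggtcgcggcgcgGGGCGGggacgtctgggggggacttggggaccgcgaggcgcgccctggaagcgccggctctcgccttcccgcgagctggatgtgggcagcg
Smo: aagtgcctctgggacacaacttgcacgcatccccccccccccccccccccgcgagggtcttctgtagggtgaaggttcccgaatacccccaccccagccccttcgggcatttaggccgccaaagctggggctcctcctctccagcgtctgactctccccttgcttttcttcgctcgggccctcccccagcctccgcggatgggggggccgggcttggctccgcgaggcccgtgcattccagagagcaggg

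The Scube2 window holds 5 GC boxes, that of Ptch1 1 and that of Smo 0, and 32.7% of 32851 windows of this length hold at least 1. All 3 are rich in G and C, at 73.6%, 78.4% and 68.4% against a median of 52.4% over all windows. The Gli-binding consensus GACCACCCA, searched on both strands, was in 0.225% of all windows. It was in 0 of the 9 windows of the 7 members that have one in this set (Ptch1, Smo, Gli2, Gli3, Hhip, Scube2 and Foxa2). These letters may lie elsewhere around the genes, which were not searched. Shh and Gli1 had no entry in the set of windows.

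The first question was whether the absence of Fezf1 and Fezf2 changed hedgehog genes in the same way at all ages. None of the 12 tested member probe sets passed (limma with age as a block, adjusted p = 1 for each), and 1 of them had an unadjusted p under 0.05. Over all tested probe sets 6 of 19593 passed (0.0306%), and 4.5% had an unadjusted p under 0.05. The mean difference of the 12 had a median of 0.13 against 0.0084 over all tested probe sets. It ran from -0.04 for a Gli3 probe set to 0.54 for Scube2. Several of the 12 share a gene, so they are not independent. Scube2 passed the filter only through its knockout value at E12.5. With that value at the wild-type level its mean log2 signal would be 4.68, against a filter at 4.88.

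The ligand gene Shh has a bright probe set (1436869_at). In order of age, its signal was 321, 388 and 273 on the wild-type arrays, and all series of 3 values below follow this order. On the knockout arrays it was 430, 371 and 453. The knockout array was the higher of the pair at E9.5 and E12.5 and marginally the lower at E10.5, so the lines of the genotypes cross. The differences were 0.42, -0.06 and 0.72, and their mean was 0.36 ± 0.13 (moderated SE from limma, 3 pairs; unadjusted p = 0.0234, adjusted p = 1). Leaving out a pair moved it to 0.18 (without E12.5) or 0.57 (without E10.5). At E12.5 the knockout was 1.64-fold higher, and 1.03% of all tested probe sets were at least as much higher in the knockout. For the E9.5 difference this share was 7.82%. The second Shh probe set (1427571_at) was dim, with signals of 11.9, 35.1 and 19.0 against 1.35, 35.5 and 25.9 on the knockout arrays. It was lower in the knockout at E9.5, where both values lay below the median of all values (24.0), and differed by 0.02 at E10.5 and 0.34 at E12.5.

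**Figure D1:**
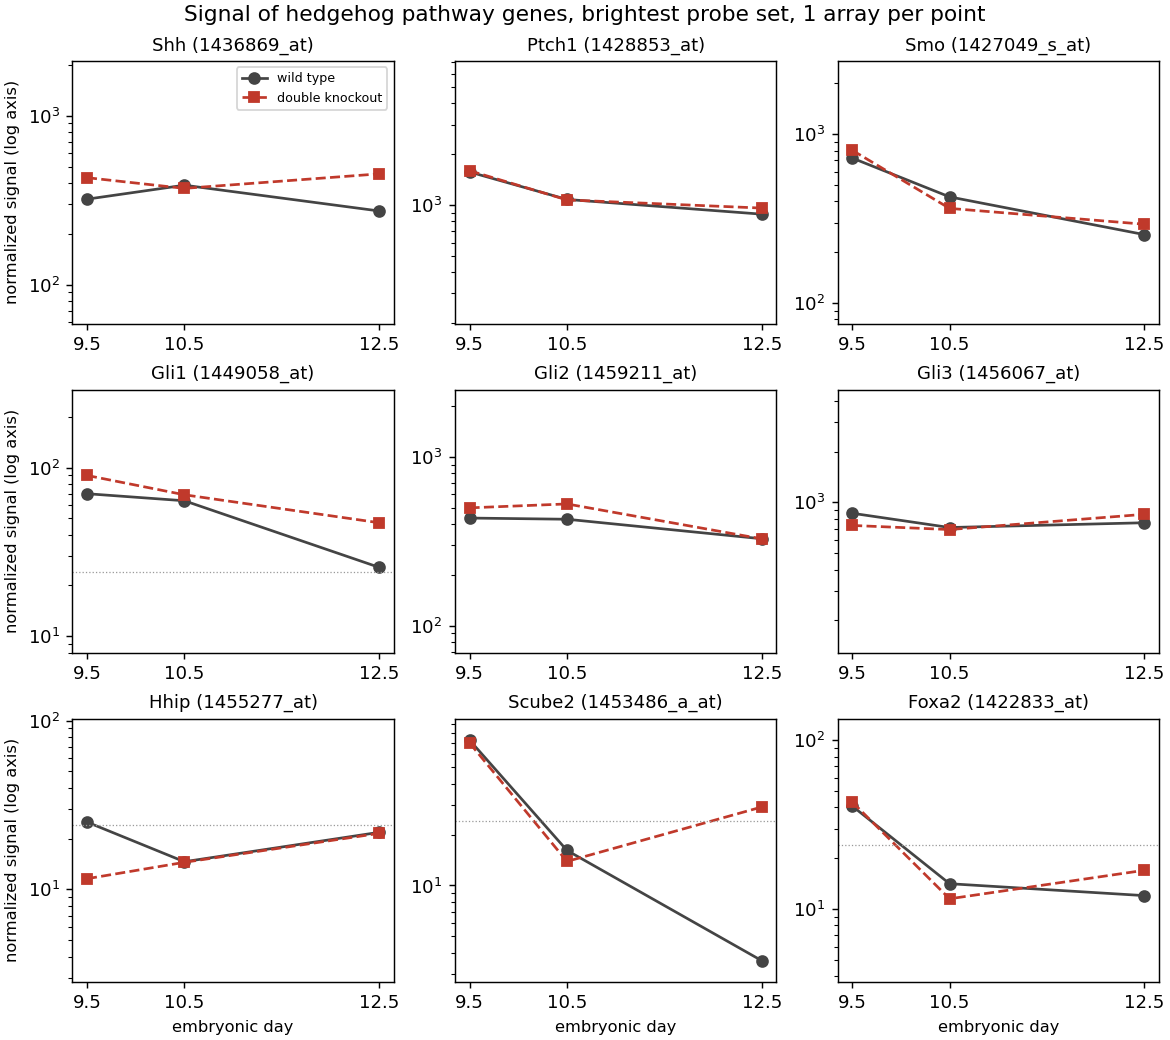
Normalized signal (log axis) of the brightest probe set of each of the 9 hedgehog genes against embryonic day, 1 array per point, wild type as grey circles and the double knockout as red squares. The dotted line is the median of all values, 24.0, drawn where it falls inside the panel. Scube2 is the gene whose arrays stand farthest apart, at 3.58 and 29.2 at E12.5, while those of Ptch1 nearly coincide at E9.5 and E10.5.

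Scube2 showed the largest genotype difference among the 12 tested probe sets, and it lay at E12.5. Wild-type arrays gave 72.7, 16.1 and 3.58. Knockout arrays gave 69.9, 13.9 and 29.2. The arrays of the genotypes were close at E9.5 and E10.5, and at E12.5 the knockout value had returned above that of E10.5 while the wild-type value was the lowest of the 6. The knockout was 3.54-fold higher at E12.5 (log2 difference 1.82), and the differences at E9.5 and E10.5 were -0.05 and -0.15. Across ages the mean was 0.54 ± 0.37 (limma, adjusted p = 1). Leaving out E12.5 gave -0.10. Before normalization the deposited E12.5 signals were 4.485 and 45.9. The gene has 1 probe set, its wild-type value at E12.5 is dim, and with a pseudocount of 32 the difference was 0.78, under 2-fold.

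A difference of at least 2-fold with the brighter array above 24.0 was counted at each age, with no test. By this rule 0 of the 20 member probe sets differed at E9.5 and 0 at E10.5, where 1.34% and 1.5% of all tested probe sets did. At E12.5 it held for 1 of the 12 tested member probe sets, that of Scube2, against 0.567% of all tested. Scube2 was among the tested only through this difference: with its knockout E12.5 value at the wild-type level its mean log2 signal would be 4.68, below the filter at 4.88. Of the other 11, which passed the filter also without any 1 age, 0 met the rule, so the count is no support for a difference. Counting dim probe sets as well, 2 of 20 were higher in the knockout at E12.5, against 0.286% of all 34958 single-symbol probe sets. The second was a Hhip probe set. Such differences are commoner among dim probe sets. Of the dimmest 4898 tested ones, to which Scube2 belongs, 1.25% differed by this rule at E12.5, and of the brightest 4899, 0.122% did.

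Among the receptor genes, Ptch1, which encodes the receptor for Shh and is itself a transcriptional target, hardly differed between genotypes on its bright probe set (1428853_at). Wild-type arrays gave 1571, 1080 and 884, the knockout arrays 1599, 1073 and 960. The differences were 0.03, -0.01 and 0.12, with a mean of 0.05 ± 0.07 (adjusted p = 1). A dimmer probe set (1439663_at) read 43.0, 20.4 and 51.7 against 53.2, 45.3 and 47.9. Its difference of 0.95 at E10.5 stands apart from 0.27 at E9.5 and -0.10 at E12.5 and was not shared by the bright probe set. The last Ptch1 probe set stayed between 0.797 and 7.57 on all arrays.

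Smo, the transducer that Ptch1 restrains, was measured by a pair of brighter probe sets. The first (1427049_s_at) gave 724, 426 and 255 against 805, 364 and 293 on the knockout arrays, with differences of 0.15, -0.22 and 0.20. The second (1427048_at) gave 288, 169 and 75 against 278, 131 and 123, with differences of -0.05, -0.35 and 0.66. Both had their lowest difference at E10.5 and their highest at E12.5, but the size at E12.5 was not shared. Their means were 0.04 ± 0.10 and 0.09 ± 0.17 (limma, adjusted p = 1 for each). The last Smo probe set lay between 0.254 and 5.69.

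Hhip encodes a membrane protein that binds hedgehog ligand and keeps it from Ptch1, and it is induced by the pathway. All 4 of its probe sets were dim. At E12.5 the signals were 5.0 and 25.9 (1437933_at), 7.93 and 18.2 (1438083_at), 12.1 and 19.6 (1421426_at) and 21.8 and 21.5 (1455277_at) in wild type and knockout. The knockout array was higher for the first 3 of these, by 1.5, 0.77 and 0.49, and differed by -0.02 on the last, which is the brightest. At E10.5 the same 4 differed by 0.00, 1.20, 1.13 and -0.01. The probe sets of this gene therefore do not give a common value, and only the E12.5 difference of the first meets the 2-fold rule. With a pseudocount of 32 it was 0.65.

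**Figure D2:**
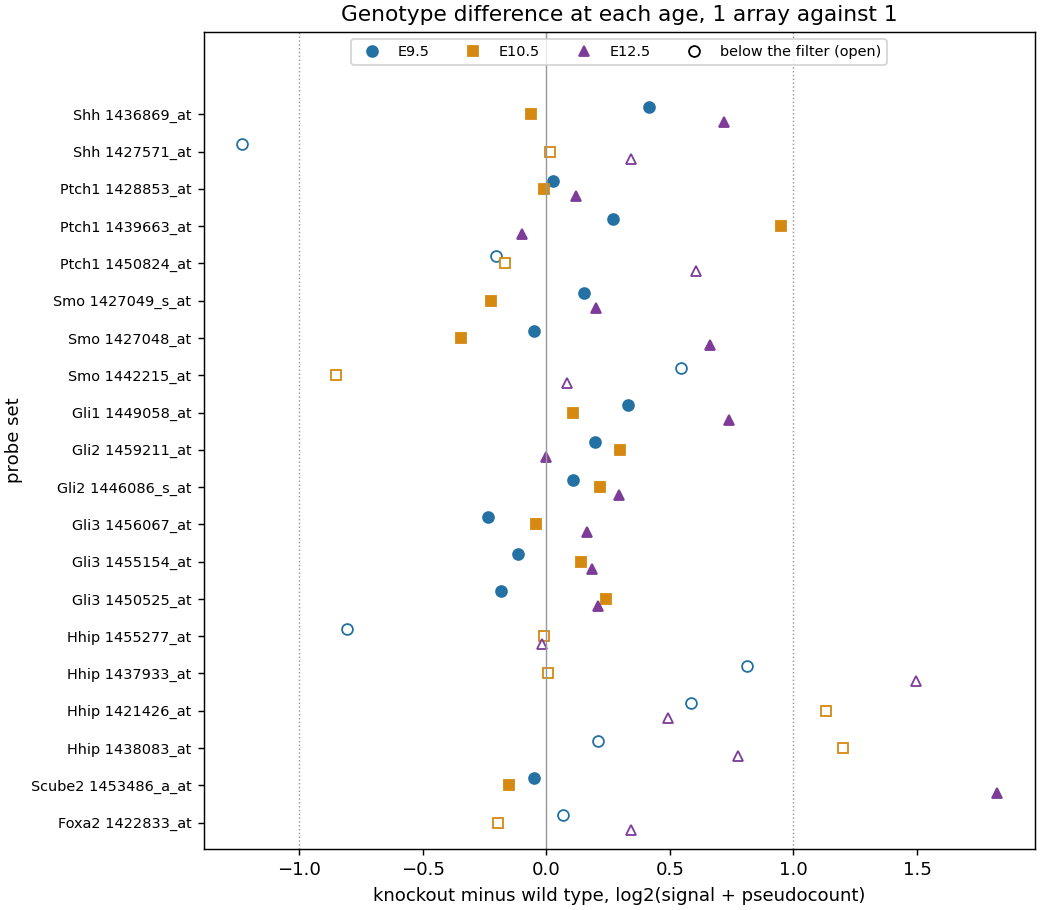
Knockout minus wild type on the log2(signal + pseudocount) scale for all 20 member probe sets, with E9.5 as circles, E10.5 as squares and E12.5 as triangles, filled where the probe set lay above the filter and open where it did not. Dotted lines mark 2-fold. Among the 12 filled rows, Scube2 at E12.5 (1.82) is the only point past 2-fold, and 10 of the 12 E12.5 points lie above 0.

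Of the transcription factor genes, Gli1, an activator whose transcription is a common readout of hedgehog response, had the knockout array above the wild-type one at each age. Wild-type arrays gave 70.0, 63.5 and 25.6, the knockout arrays 89.8, 68.9 and 47.1. The differences were 0.33, 0.11 and 0.74, the last of them 1.67-fold. At E12.5, 0.954% of tested probe sets were at least as much higher in the knockout. The mean was 0.39 ± 0.18 (limma, unadjusted p = 0.053, adjusted p = 1). Leaving out E12.5 made it 0.22. Gli1 has 1 probe set, and its wild-type value at E12.5 is near the median of all values.

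Gli2, the main activator downstream of Smo, read 434, 427 and 327 against 499, 526 and 327 on the knockout arrays by its brighter probe set (1459211_at). The other (1446086_s_at) gave 163, 172 and 104 against 176, 201 and 130. At E9.5 and E10.5 both were slightly higher in the knockout, by 0.11 to 0.30, and at E12.5 they differed by 0.00 and 0.30. Their means were 0.16 ± 0.09 and 0.21 ± 0.11 (adjusted p = 1 for each).

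Gli3, which acts mainly as a repressor where hedgehog signal is low and is strongly expressed in dorsal forebrain, had 3 tested probe sets. The brightest (1456067_at) gave 862, 710 and 757 against 730, 690 and 850 on the knockout arrays. The next (1455154_at) gave 1091, 632 and 529 against 1007, 698 and 601, and the dimmest (1450525_at) 79.0, 61.8 and 64.9 against 68.8, 74.3 and 76.0. All 3 were lower in the knockout at E9.5, by -0.12 to -0.24, and higher at E12.5, by 0.16 to 0.21. None of the 3 passed across ages, with means of -0.04, 0.07 and 0.09 and moderated SEs of 0.09, 0.08 and 0.16. Whether the E9.5 and E12.5 differences of Gli3 themselves differ could not be tested with 1 array per group.

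Foxa2, a forkhead factor gene of the floor plate that Shh induces, was dim on its single probe set. Wild-type arrays gave 40.8, 14.1 and 12, the knockout arrays 43.1, 11.5 and 17.0. The genotypes differed by 0.07, -0.20 and 0.34. Only the E9.5 values lay above the median of all values.

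By age, the tested member probe sets were spread evenly around 0 at first. At E9.5, 7 of 12 were higher in the knockout and at E10.5 6 of 12, with medians of 0.07 and 0.05. At E12.5 10 of 12 were higher, with a median of 0.20 against 0.01 over all tested probe sets, of which 52.9% were higher. Without Scube2 it was 9 of 11, again with a median of 0.20. These probe sets are not independent, since several share a gene. At the same age, markers of midbrain and caudal diencephalon were higher in the knockout. Of 10 such genes measured, 8 were higher by the 2-fold rule, and their summed signal was 759 in wild type and 2184 in the knockout, where the E9.5 and E10.5 arrays of both genotypes held 1428 to 1791. En1 and En2, both midbrain genes, lay below the filter, and En1 differed by 1.02 with both values dim. Head mesenchyme markers went the other way at E12.5: all 9 tested were lower in the knockout, and the 10 measured summed to 2022 in wild type and 1380 in the knockout. Alx4, below the filter, differed by 0.58 with both values dim. All 4 erythroid markers measured were higher in the knockout at E12.5. Hbb-bh1 read 1692 in wild type and 2747 in the knockout, and Hba-x 2715 and 4448. Hbb-y and Alas2 differed by 0.10 and 0.05. The part of these tissues in the hedgehog values at E12.5 was not tested, and more cells of a type cannot be told apart from more RNA per cell in dissected tissue.

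The second question was how the pathway changed as the forebrain grew. From E9.5 to E12.5, 8 of the 12 tested probe sets fell (limma over both genotypes, adjusted p between 8.12e-06 and 0.00865), where 32.9% of all tested probe sets fell. The 8 belong to Ptch1, Smo, Gli1, Gli2, Gli3 and Scube2. Leaving out Scube2, whose place among the tested rests on its E9.5 arrays, 7 of 11 fell. None rose, where 26.3% of all tested did. Shh, the ligand gene, differed by -0.08 ± 0.16 between these ages (adjusted p = 0.705). The split of calls over all probe sets depends on the scaling: 6447 fell and 5159 rose after quantile normalization, 5226 and 6283 with a common trimmed mean, and 2455 and 10058 on the values as deposited. On the deposited values 5 of the member probe sets fell and 3 rose.

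Smo had the most marked fall among the bright probe sets, with E12.5 minus E9.5 at -1.46 ± 0.12 (adjusted p = 8.12e-06) and -1.5 ± 0.21 (adjusted p = 2.13e-04) on its brighter probe sets. In wild type alone the first fell from 724 to 255, and in the knockout from 805 to 293. Ptch1 fell by 0.78 ± 0.08 (adjusted p = 2.73e-05) on the bright probe set, from 1571 to 884 in wild type and from 1599 to 960 in the knockout. Its dimmer tested probe set gave 0.05 ± 0.28 (adjusted p = 0.889). For both genes the fall was of like size in the arrays of either genotype on the brightest probe set, and most of it lay before E10.5.

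Scube2 was lower at E12.5 than at E9.5 by 2.04 ± 0.45 in the fit. It passed the filter only through its E9.5 arrays (mean log2 signal 4.33 without them, against 4.88), and its wild-type E12.5 signal is near the bottom of the scale, so this value is a description. The genotypes differ in this value more than for any other tested member, at -2.97 in wild type and -1.10 in the knockout, and the fitted change is their mean. From E9.5 to E10.5 the arrays of both genotypes were alike, at -1.81 and -1.91. Gli1 fell by 1.05 ± 0.22 (adjusted p = 0.00232), at -1.25 in wild type and -0.85 in the knockout, and here the greater part came after E10.5. The Gli2 probe sets fell by 0.50 ± 0.11 and 0.52 ± 0.14 (adjusted p = 0.00338 and 0.00865), also after E10.5. On the deposited values the Gli2 probe sets differed by -0.06 (limma, adjusted p = 0.719) and 0.13. Gli1 gave -0.33 there with an adjusted p of 0.222, so these calls rest on the scaling. With a common trimmed mean the second Gli2 probe set also missed the threshold (-0.29, adjusted p = 0.0907), while the first passed (-0.49, adjusted p = 0.00423).

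Gli3 gave no common value over age. One probe set (1455154_at) fell by 0.89 ± 0.10 (adjusted p = 4.99e-05), while the others differed by 0.02 ± 0.11 and -0.06 ± 0.19 (adjusted p = 0.908 and 0.793). Where along the gene each of them reads was not analysed here.

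**Figure D3:**
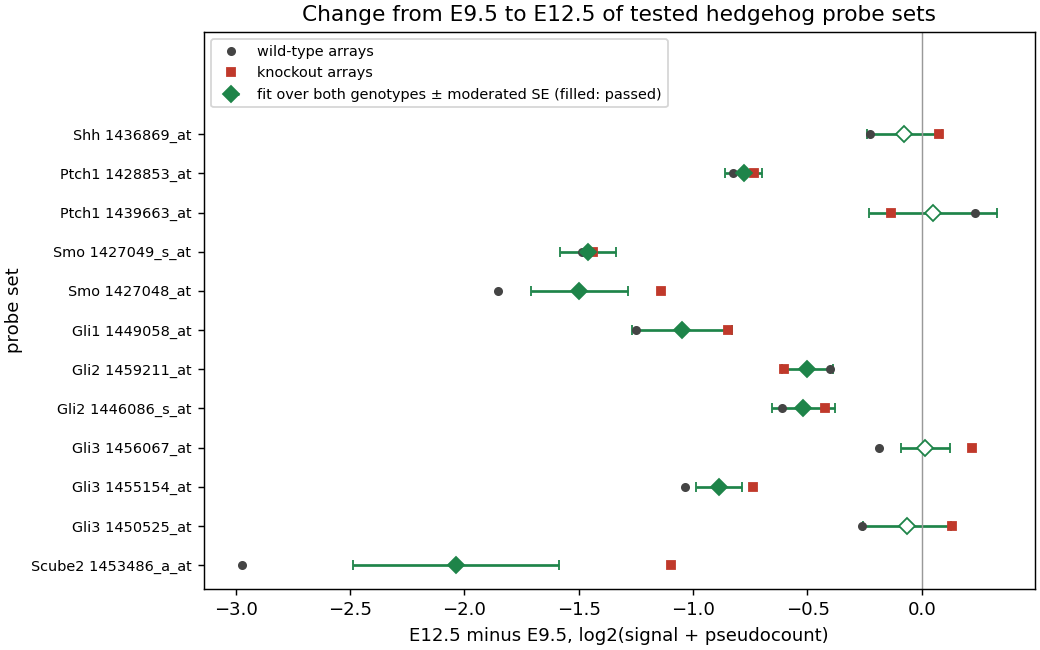
E12.5 minus E9.5 on the log2(signal + pseudocount) scale for the 12 tested member probe sets. Green diamonds are the limma fit over both genotypes with the moderated SE, filled where the adjusted p was below 0.05, and grey circles and red squares are the change between the wild-type arrays and between the knockout arrays. All 8 filled diamonds lie below 0, and the circle and square of Scube2 are the farthest apart, at -2.97 and -1.10.

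Steps between neighbouring ages were fitted as well. From E9.5 to E10.5, 4 of the 11 tested probe sets other than that of Scube2 fell and none rose, where 13.6% of all tested fell. They were the brightest Ptch1 probe set (-0.56 ± 0.08), a pair of Smo probe sets (-0.94 ± 0.12 and -0.90 ± 0.21) and 1 Gli3 probe set (-0.65 ± 0.10). Their limma adjusted p lay between 7.43e-04 and 0.012. With Scube2 (-1.86 ± 0.45) the count was 5 of 12. Scube2 passed the filter only through its E9.5 arrays, so its fall from that age is a description. From E10.5 to E12.5, 6 of the 12 fell (27.5% of all tested) and none rose: Gli1 (-0.81 ± 0.22), the Gli2 probe sets (-0.53 ± 0.11 and -0.65 ± 0.14), a pair of Smo probe sets (-0.52 ± 0.12 and -0.60 ± 0.21) and the brightest Ptch1 probe set (-0.22 ± 0.08), with adjusted p between 0.00349 and 0.0436. The second step depends on the scaling: on the values as deposited none of the 12 fell and 8 rose. Without a variance trend in limma, the second Smo probe set and Scube2 missed the threshold in the first step (adjusted p = 0.0709 and 0.0647), and Ptch1 and the second Smo probe set in the second (adjusted p = 0.185 and 0.121). With a common trimmed mean, Gli1 and the second Smo probe set missed it in the second step (adjusted p = 0.0904 and 0.141), while Gli3 1455154_at passed (adjusted p = 0.0292). With no filter on dim signal, Ptch1 and the second Smo probe set missed it there (adjusted p = 0.0711 and 0.0874). Tissue markers also changed between E9.5 and E12.5. Head mesenchyme markers summed to 3784 and 5187 at E9.5 and to 2022 and 1380 at E12.5 in wild type and knockout, with 8 of 9 tested lower by the same fit. Surface ectoderm markers summed to 1224 and 1470 at E9.5 and 130 and 118 at E12.5. The part of these tissues in the fall of Ptch1, Smo and Gli1 was not tested.

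The rest of the pathway was read from 7 lists covering 58 genes, of which 55 were measured and 47 were above the filter, each by its brightest probe set. None of the 47 passed for genotype (adjusted p from limma over all tested probe sets). Of the 47 genes, 6 had an unadjusted limma p under 0.05, where 4.5% of all tested probe sets did. The median differences of the 47 at the 3 ages were 0.01, -0.06 and 0.02. Their mean differences across ages had a median of 0.0135, against 0.0084 over all tested probe sets. Of the 4 tested genes for ligand production and release, 1 had a positive mean difference. The 4 co-receptor genes had 3, the 13 intracellular regulators 8, the 7 genes of cilium transport 5, the 9 responding genes 3, the 5 floor plate genes 3 and the 5 upstream regulators of Shh 3. From E9.5 to E12.5, 19 of the 47 fell and 13 rose, where 32.9% and 26.3% of all tested probe sets did. All 4 tested genes for ligand production and release fell, with a median of -1.33. This list has 7 measured genes, and those below the filter, which were not tested, did not move together. Disp2 rose from 12.03 at E9.5 to 56.18 at E12.5 in wild type and from 8.595 to 48.71 in the knockout. Ihh was lower at E12.5 in both genotypes, and Dhh was lower in wild type and higher in the knockout.

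By the 2-fold rule 5 of the 55 differed between genotypes at some age, 4 of them lower in the knockout at E10.5. In order of age, 1.34%, 1.5% and 0.567% of all tested probe sets differed by this rule. At E10.5 it was 4.63% of the dimmest 4898 tested ones, to which Nkx2-2, Foxf2 and Foxa1 belong, and 0.163% of the brightest 4899. Of the 6 forebrain markers measured, all but Otx2 were also lower at E10.5. Emx2 differed by -1.08 and Lhx2 by -1.06, while Otx2 was higher in the knockout (0.63). The 6 summed to 4192 in wild type and 3210 in the knockout. Their part in the values below was not tested. Kif7, which encodes a ciliary kinesin that controls Gli proteins, had signals of 72.1 and 29.6 at that age (-1.12). Nkx2-2, a homeobox gene that Shh induces in ventral neural tube, had 49.5 and 18.5 (-1.16). Foxf2, a forkhead gene of hedgehog-responding mesenchyme, had 53.3 and 19.0 (-1.23), and its second probe set was lower too (-0.83). Foxa1, a floor plate relative of Foxa2, had 53.6 and 21.4 at E10.5 (-1.11), and 39.8 and 79.4 at E12.5 (0.89). Rax, a homeobox gene of eye field and hypothalamus, was lower at E9.5 instead, at 60.1 and 18.9 (-1.39). None of these passed across ages, and Rax lay below the filter.

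**Figure D4:**
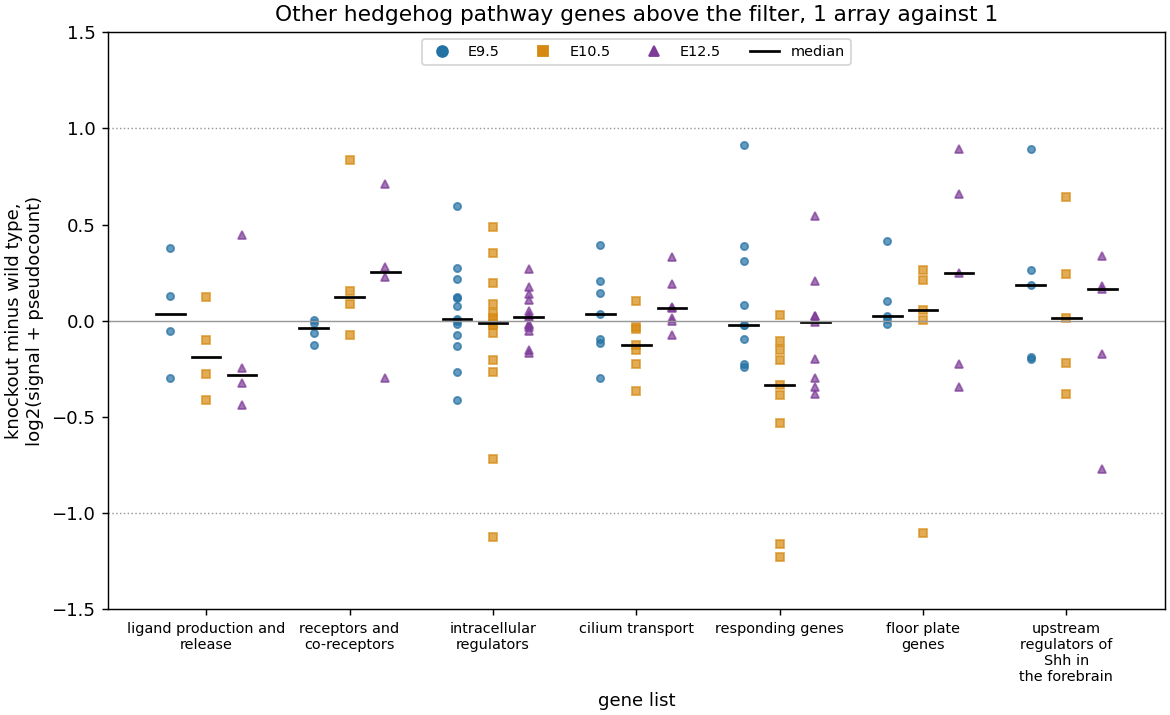
Knockout minus wild type on the log2(signal + pseudocount) scale for the tested genes of 7 further hedgehog lists, with E9.5 as circles, E10.5 as squares, E12.5 as triangles and a black bar at each median. Dotted lines mark 2-fold, and the points beyond them are Kif7, Nkx2-2, Foxf2 and Foxa1, all at E10.5.

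Finally, genes with the most similar profile were sought by the root mean square difference between log2 values centred over the 6 arrays, among genes with a range of at least 1. For Ptch1 these were Pde5a (0.05), Gm9222 (0.07) and Sod2 (0.07). For Gli1 they were Gm20740 (0.06), Gprc5a (0.09) and Rph3al (0.09), against a range of 1.58 for Gli1 itself. For Shh they were Slc45a3, Emc9 and Angpt1 (each 0.21), and for Scube2, with a range of 2.97, Vwc2 (0.44), Gkn3 (0.48) and Rpusd2 (0.49). Shh and Ptch1 themselves ranged over 0.72 and 0.85, so genes that vary as little as they do were not among the candidates, and the measure grows with the range. The nearest gene to Scube2, Vwc2, had signals of 66.9, 38.4 and 13.5 against 70.2, 28.8 and 42.4 on the knockout arrays. Likeness over 6 arrays, among 4333 genes for Gli1 and Scube2 and 4334 for Shh and Ptch1, is a description with no test.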

How the data were processed

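The 6 arrays were placed in groups by genotype and age in their labels. The authors deposited 1 intensity per probe set. The submitters' processing notes name MAS5, and its settings were not given in the sources used here. The signals were quantile-normalized before log2(signal + 6.5) was taken, where 6.5 is the 25th percentile of the deposited intensities. Gene names came from the platform annotation (34958 with 1 symbol, 932 with several, 9211 with none listed), and 34754 matched RefSeq by Entrez identifier with 0 symbols changed. The 19593 single-symbol probe sets with a mean log2 value over the median probe set entered limma 3.58.1 in R 4.3.3 (lmFit, then eBayes with a variance trend), with terms for genotype and age over the 6 arrays, with 2 residual degrees of freedom (9.72 once moderated). Adjusted p-values are Benjamini-Hochberg over all of these, with a threshold of 0.05.

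The members and lists were chosen with earlier results of these data known. Named genes were every member probe set, then list genes that passed for genotype or met the 2-fold rule at an age, then the 3 nearest profiles of Shh, Ptch1, Gli1 and Scube2. Alternatives were other scalings, pseudocounts of 1 and 32, no filter, the brightest probe set of a gene, no variance trend, no age block and leaving out an age pair. Counts without Scube2 were added after its values were seen. The number of arrays, the scaling and, for dim probe sets, the pseudocount limit what can be read from these values.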

Additional observations from a re-analysis of the deposited data

How the results depend on the processing

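For genotype across ages, 0 member probe sets passed in either direction under every alternative run. Some means changed sign when 1 age was left out. The brighter Smo probe set ranged from -0.035 to 0.176 (-0.012 without E9.5, -0.035 without E12.5), the other Smo probe set from -0.197 (without E12.5) to 0.308, the brightest Gli3 probe set from -0.139 to 0.062 (without E9.5) and Scube2 from -0.101 (without E12.5) to 0.886. On the values as deposited, where knockout arrays are brighter (median difference 0.08, 0.26 and 0.21 in order of age), that Gli3 probe set was 0.18. By the 2-fold rule 1 member probe set differed at E9.5 and 1 at E10.5 with a pseudocount of 1. At E12.5 the count was 0 with a pseudocount of 32 and 1 with the brightest probe set of each gene.

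Several changes with age rest on the scaling. From E9.5 to E12.5 the count lower was 5 on the values as deposited, where 3 were higher, and 5 with the brightest probe set of each gene, which leaves 7 to test. There Shh was 0.38 on the deposited values, the second Gli2 probe set 0.13 and the dimmest Gli3 probe set 0.69. With a common trimmed mean that Gli3 probe set was 0.28 and the brightest -0.14. From E9.5 to E10.5 the count lower was 9 as deposited, 3 with the brightest probe set and 3 with no variance trend, and 1 was higher with no filter. As deposited, Shh was -0.38 and the Gli2 probe sets -0.40 and -0.23. From E10.5 to E12.5, 1 was higher with a common trimmed mean, and as deposited 0 were lower and 8 higher. In that setting Shh was 0.76, Ptch1 0.45, the Smo probe sets 0.38 and 0.43, Gli1 0.27, the Gli2 probe sets 0.34 and 0.35, the second Gli3 probe set 0.54 and Scube2 0.57, while the median of all tested probe sets was 0.84. The deposited arrays differ in overall level, and the cause was not tested. No paired analysis by replicate number was possible because the labels give none, and age served as the block.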
